A study of Mus musculus with 5 samples.

Results

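Within organoids grown in BME, single cells differed widely in the level of a small group of hypoxia-induced transcripts, and cells from the top of that range were compared with cells from its bottom. Each well was scored by its summed counts of Vegfa, Egln3, Ndrg1, Bhlhe40 and Ero1l per 10000 counts of the well. Of 1152 wells on 3 BME plates, 810 held more than 2000 counts and fewer than 8000 genes. The 1 in 4 wells with the highest and the 1 in 4 with the lowest score of each plate gave 201 hypoxia-high and 201 hypoxia-low wells (71, 64 and 66 per plate in each group), of 1920 wells on the 5 plates analysed here. The members were thus chosen on measured values, and the 5 genes are described without a test on the wells they chose.

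The cells came from organoids of MMTV-PyMT mouse mammary tumors, in which the MMTV promoter drives the polyoma middle T oncogene mainly in mammary epithelium. Organoids expanded in BME (basement membrane extract) were embedded for 5 days in Collagen I, which is labelled as invasive, or again in BME, which is labelled as without invasion. Live single cells were sorted into 384-well plates, where SORT-seq gave each transcript molecule a barcode before amplification. Hypoxia-high and hypoxia-low cells of a plate shared genotype, medium, matrix, age of culture and sort, and no drug was given. Oxygen was not measured, so the word hypoxia names the genes only. Whether the plates hold separate cultures is not stated, so p-values measure the spread between plates, which may be technical. All plates carry the same 384 well numbers by design. The 2 Collagen I plates analysed here (replicates 1 and 3, with no replicate 2 analysed here) gave 111 hypoxia-high and 111 hypoxia-low wells by the same rule and serve for comparison.

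Cells sense oxygen largely through the hypoxia-inducible factors (HIF). When oxygen is present, prolyl hydroxylases of the EGLN family mark the HIF alpha subunit for the VHL ubiquitin ligase. When it is scarce, the alpha subunit persists, pairs with ARNT and activates genes that hold a short core motif, often ACGTG. Known targets raise glycolysis, restrain mitochondria, modify collagen and attract vessels, and in solid tumors they mark poorly supplied regions. Among the score genes, Vegfa encodes an angiogenic ligand, Egln3 a prolyl hydroxylase, Ero1l an oxidase of the endoplasmic reticulum, Bhlhe40 a transcriptional repressor and Ndrg1 a stress-responsive cytoplasmic protein.

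In mm10 coordinates (GENCODE vM21), Vegfa spans chr17:46016993-46032369, Egln3 chr12:54178981-54203860, Ndrg1 chr15:66929318-66969640 and Ero1l chr14:45283087-45318771, all on the minus strand, and Bhlhe40 spans chr6:108660629-108666925 on the plus strand. The promoters below belong to 2 score genes and to 3 of the genes that rose most outside the score, namely Bnip3 (a mitophagy receptor), P4ha2 (a collagen prolyl hydroxylase) and Car9 (carbonic anhydrase IX), and are shown because they hold the HIF core motif. Each runs from 250 bases before to 50 bases after the start in RefSeq (GRCm38.p6), in the direction of its gene. The windows are chr12:54203825-54204124, chr14:45318523-45318822 (listed there as Ero1a) and chr7:138909457-138909756 on the minus strand, and chr11:54100674-54100973 and chr4:43506776-43507075 on the plus strand. Capitals mark ACGTG on either strand, so that a match on the other strand reads CACGT.
Egln3: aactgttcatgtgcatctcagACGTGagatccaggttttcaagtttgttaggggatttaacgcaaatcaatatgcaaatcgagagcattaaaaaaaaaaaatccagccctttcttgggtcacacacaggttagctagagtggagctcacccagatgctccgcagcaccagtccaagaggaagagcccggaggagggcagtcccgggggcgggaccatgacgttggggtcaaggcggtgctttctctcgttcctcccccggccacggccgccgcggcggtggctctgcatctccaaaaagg
Ero1l: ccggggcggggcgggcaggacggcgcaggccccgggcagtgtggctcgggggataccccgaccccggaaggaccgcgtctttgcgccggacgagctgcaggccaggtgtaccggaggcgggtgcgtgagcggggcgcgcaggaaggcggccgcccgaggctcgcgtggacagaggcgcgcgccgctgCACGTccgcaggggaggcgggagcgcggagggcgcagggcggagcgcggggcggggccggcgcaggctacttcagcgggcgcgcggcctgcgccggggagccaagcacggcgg
Bnip3: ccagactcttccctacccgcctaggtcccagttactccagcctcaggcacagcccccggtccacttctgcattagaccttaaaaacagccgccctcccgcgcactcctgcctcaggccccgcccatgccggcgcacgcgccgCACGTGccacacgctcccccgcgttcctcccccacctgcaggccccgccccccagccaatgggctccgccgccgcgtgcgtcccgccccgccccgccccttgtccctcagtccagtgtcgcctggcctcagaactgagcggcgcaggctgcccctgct
P4ha2: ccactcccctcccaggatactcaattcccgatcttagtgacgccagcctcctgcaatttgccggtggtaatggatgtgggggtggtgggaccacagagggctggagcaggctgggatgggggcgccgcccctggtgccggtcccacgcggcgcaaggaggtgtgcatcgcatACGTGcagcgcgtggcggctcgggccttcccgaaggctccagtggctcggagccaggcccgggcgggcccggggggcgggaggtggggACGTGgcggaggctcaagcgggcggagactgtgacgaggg
Car9: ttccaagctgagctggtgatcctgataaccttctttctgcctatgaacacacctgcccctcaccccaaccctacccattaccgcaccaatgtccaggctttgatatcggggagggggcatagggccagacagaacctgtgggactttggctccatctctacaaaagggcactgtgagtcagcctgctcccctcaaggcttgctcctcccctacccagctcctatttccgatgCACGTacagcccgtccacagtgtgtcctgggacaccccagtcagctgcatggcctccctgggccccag
The window of Bnip3 holds the palindrome CACGTG, which counts as 2 overlapping matches, P4ha2 has 2 separate matches, and the other windows shown have 1 each. Of the score genes not shown, Vegfa has a window without a match (chr17:46032328-46032627) and another with 1 match (chr17:46025114-46025413). No window was found for Ndrg1 or Bhlhe40. At least 1 match was found for 23 of 36 HIF targets outside glycolysis that were tested and had a window (63.9%) and for 14 of 20 glycolysis genes (70%). It was also found for 17 of 37 Myc targets and ribosome biogenesis genes (45.9%), a list that was lower in hypoxia-high wells, for 14 of 58 nuclear genes of oxidative phosphorylation (24.1%) and for 5 of 10 genes with a window among the 12 largest rises. The share was 30.6% over all tested genes with a window (2391 of 7826) and 19.6% over all 32851 windows. It was 34.5% among genes that rose in hypoxia-high wells and 32.6% among genes that fell, by the test below. A match describes the letters only.

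The score ran continuously from low to high. Its median was 21.5, 21.9 and 19.6 in the hypoxia-high wells of BME replicates 1, 2 and 3 and 2.15, 2.20 and 2.19 in the hypoxia-low wells. The lowest wells inside the high group scored 8.79, 11.3 and 10.9 and the next wells below it 8.69, 10.96 and 10.9. The highest wells inside the low group scored 3.20, 3.16 and 3.11 and the next above it 3.21, 3.19 and 3.12, so neither limit fell at a gap. No count of any score gene was found in 9, 6 and 4 wells, all of them in the low group.

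**Figure D1:**
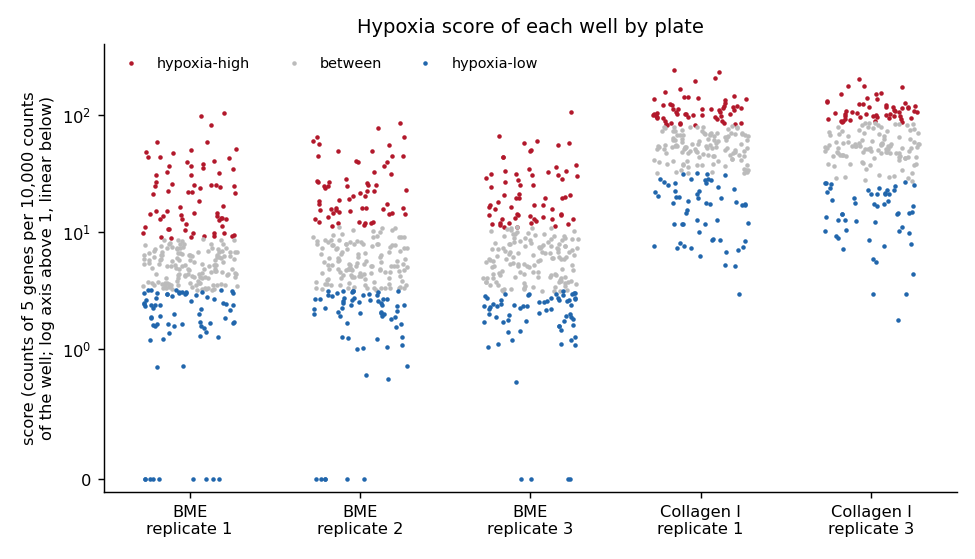
Hypoxia score of each well that passed the filter (y axis: summed counts of 5 genes per 10000 counts of the well; logarithmic above a linear zone near 0), by plate (x axis), with hypoxia-high wells in red, hypoxia-low wells in blue and wells between them in grey. Hypoxia-low wells of Collagen I, with medians of 17.3 and 14.4, lie near the hypoxia-high wells of BME, with medians of 21.5, 21.9 and 19.6.

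Depth and cell state differed between the groups, and their part in the results was not tested beyond the subsets given further on. The median hypoxia-high well held 20236, 22223 and 24437 counts in the 3 plates, and the median hypoxia-low well 21739, 31301 and 31148. ERCC spike-ins were 3.27, 3.42 and 3.11% of counts in the median hypoxia-high well and 2.51, 2.35 and 2.40% in the median hypoxia-low well. The mitochondrial chromosome gave 12.4, 11.5 and 12.1% of counts in the median hypoxia-high well and 18.7, 14.4 and 16.2% in the median hypoxia-low well. S and G2/M genes together gave 0.357, 0.297 and 0.299% in the median hypoxia-high well and 0.597, 0.597 and 0.617% in the median hypoxia-low well. Basal markers gave 0.105, 0.240 and 0.106% in the median hypoxia-high well and 0.0557, 0.0553 and 0.0544% in the median hypoxia-low well. Each of these 5 measures differed in the same direction in all 3 plates, for which the exact two-sided sign-flip permutation test gives p = 0.25, the smallest that 3 plates allow. Wells between the groups had a median S and G2/M share of 0.867, 0.788 and 0.826%, above both groups, so this share did not run evenly along the score. Their median well held 26737, 31179 and 35628 counts. By summed counts, the high and low groups lay closer for the cell cycle than by these medians. S phase genes summed to 2463, 2819 and 2419 CPM in hypoxia-high wells, against 3277, 3286 and 3140 CPM in hypoxia-low wells. The G2/M sums, given further on, overlapped. Of the 7 endothelial markers 4, and of the 7 immune markers 2, had no count in any BME sum. The endothelial list summed to 1.76, 3.10 and 1.72 CPM in hypoxia-high wells, against 2.08, 5.19 and 4.03 CPM in hypoxia-low wells, the immune list to 9.96, 8.66 and 9.76 CPM in hypoxia-high wells, against 13.6, 21.3 and 25.5 CPM in hypoxia-low wells, and the fibroblast list to 104, 167 and 186 CPM in hypoxia-high wells, against 86.01, 73.2 and 151 CPM in hypoxia-low wells. Epithelial genes summed to 1445, 1220 and 1612 CPM in hypoxia-high wells, against 1083, 1084 and 986 CPM in hypoxia-low wells.

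The score genes themselves separated the groups by construction. As CPM (counts scaled to a total of 1000000 for the summed wells of a plate), Vegfa had 492, 632 and 535 CPM in hypoxia-high wells, against 53.2, 41 and 47.02 CPM in hypoxia-low wells. Ero1l was the most abundant, with 811, 756 and 857 CPM in hypoxia-high wells, against 79.8, 77.3 and 65.8 CPM in hypoxia-low wells. Bhlhe40 was the least abundant, with 57.97, 37.1 and 37.9 CPM in hypoxia-high wells, against 17.7, 14.5 and 13.4 CPM in hypoxia-low wells. Egln3 had 663, 594 and 581 CPM in hypoxia-high wells, against 54.7, 54.5 and 57.8 CPM in hypoxia-low wells, and Ndrg1 244, 563 and 345 CPM in hypoxia-high wells, against 16.7, 29.6 and 27.8 CPM in hypoxia-low wells. From well to well the genes rose together only loosely. Spearman's rho over the 286, 259 and 265 wells of a plate was 0.41, 0.53 and 0.44 for Vegfa with Ndrg1 and 0.45, 0.40 and 0.47 for Egln3 with Ero1l. For Vegfa with Bhlhe40 it was 0.04, 0.12 and 0.07. These wells share a plate, and each pair of values shares the depth of its well.

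To see whether each score gene followed the others, the wells were chosen again by the remaining 4 genes and the gene left out was tested. Vegfa then had 449.6, 596 and 501 CPM in hypoxia-high wells, against 86.02, 63.5 and 73.02 CPM in hypoxia-low wells, a log2 fold change of 2.73 ± 0.13 (SE, n = 3 plates, edgeR adjusted p = 5.7e-09). Ndrg1 rose most, with 238, 512 and 330.3 CPM in hypoxia-high wells, against 37.1, 58.4 and 33.9 CPM in hypoxia-low wells (2.98 ± 0.12, edgeR adjusted p = 3.5e-14). Egln3 rose by 2.19 ± 0.09 (edgeR adjusted p = 3.5e-10) and Ero1l by 2.57 ± 0.09 (edgeR adjusted p = 4.7e-08) on the same scale. Bhlhe40 rose least, with 49.4, 36.1 and 37.9 CPM in hypoxia-high wells, against 26.9, 24.3 and 17.6 CPM in hypoxia-low wells (0.75 ± 0.18, edgeR adjusted p = 0.0099). The plates of the 2 groups did not overlap for any of the 5 genes. The Bhlhe40 call was lost with DESeq2 (adjusted p = 0.15) and without the plate as a block (edgeR adjusted p = 0.067).

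Among the 9692 other genes that could be tested, 826 (8.52%) rose and 768 (7.92%) fell in hypoxia-high wells (edgeR quasi-likelihood test with the plate as a block, Benjamini-Hochberg adjusted p under 0.05). The median log2 fold change over all of them was -0.01, and the plates of the groups did not overlap for 2478 genes (25.6%). DESeq2, which gave 5932 of these genes an adjusted p, called 277 higher and 160 lower, and without BME replicate 2 the calls were 313 and 168. Scaling by library size alone gave 1114 and 455 and moved the median of all genes to 0.08. Of the 1594 genes called, 1594 had the same sign with DESeq2 and with library size alone, but these refit the same sums, so this says little. Without BME replicate 2 the sign was kept by 1592 of the 1593 tested. Where wells were chosen anew, it was kept by 689 of 752 tested with wells thinned to 2000 counts. It was kept by 1427 of 1470 among wells with a lower basal share and by 1468 of 1504 among those with a higher S and G2/M share.

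The oxygen-sensing machinery changed in part. Of 14 tested members 3 rose and 1 fell, so 28.6% were called, against 16.4% of all genes. The median log2 fold change was 0.14. The listed members summed to 1525, 1570 and 1528 CPM in hypoxia-high wells, against 1324, 1313 and 1314 CPM in hypoxia-low wells. Egln1, the main HIF prolyl hydroxylase and itself a known HIF target, had 166, 218 and 182 CPM in hypoxia-high wells, against 54.7, 66.4 and 68.5 CPM in hypoxia-low wells. Its groups did not overlap, and it rose by 1.49 ± 0.11 (edgeR adjusted p = 9.1e-08). Vhl, the substrate receptor of the ubiquitin ligase, rose by 0.78 ± 0.23 (edgeR adjusted p = 0.027), and Cited2, which competes with HIF1A for coactivators, by 0.57 ± 0.13 (edgeR adjusted p = 0.0076). Cul2, the scaffold of the VHL ligase, fell by 0.46 ± 0.15 (edgeR adjusted p = 0.041). The calls for Vhl and Cul2 were each lost when any 1 of the plates was left out, and that for Cited2 without BME replicate 3, where its change was 0.41 (edgeR adjusted p = 0.11).

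The HIF subunits themselves were not called. Hif1a had 155, 207 and 168 CPM in hypoxia-high wells, against 151, 149.5 and 153 CPM in hypoxia-low wells, values that do not overlap but lie close together (change 0.12 ± 0.11, edgeR adjusted p = 0.47). Epas1, which encodes HIF2A, had 138, 129 and 155 CPM in hypoxia-high wells, against 151, 66.4 and 111 CPM in hypoxia-low wells (0.32 ± 0.15, edgeR adjusted p = 0.16), and its groups overlapped. Arnt, their shared partner, had 27.5, 29.1 and 28.1 CPM in hypoxia-high wells, against 17.7, 12.5 and 21.9 CPM in hypoxia-low wells (0.62 ± 0.23, edgeR adjusted p = 0.074). Of the remaining tested members, the hydroxylases Egln2 and Hif1an changed by -0.22 and -0.21, the ligase subunits Tceb1, Tceb2 and Rbx1 by -0.13, -0.09 and -0.20, and the coactivators Ep300 and Crebbp by 0.15 and 0.49, none of them called. Hif3a and Arnt2 were too low to test, with 5 and 2 counts in hypoxia-high wells and 2 and 2 in hypoxia-low wells.

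Known HIF targets outside glycolysis were higher in hypoxia-high wells. Of 44 tested members of 61 listed, 34 rose (77.3%, against 8.52% of all genes), 0 fell and 10 were not called, and the median was 1.04. All listed members in the files summed to 8992, 9839 and 8166 CPM in hypoxia-high wells, against 4717, 4295 and 4091 CPM in hypoxia-low wells. Bnip3 had 433, 381 and 387 CPM in hypoxia-high wells, against 58.9, 34.2 and 42.99 CPM in hypoxia-low wells (3.07 ± 0.12, edgeR adjusted p = 3.2e-11), and its relative Bnip3l, also a mitophagy receptor, rose by 1.87 ± 0.10. Car9, which hydrates carbon dioxide at the cell surface, had 524, 508 and 374 CPM in hypoxia-high wells, against 101, 74.7 and 73.9 CPM in hypoxia-low wells (2.40 ± 0.10, edgeR adjusted p = 1.7e-10). Both Bnip3 and Car9 were several-fold higher in each plate. Gys1, the glycogen synthase of muscle and most other tissues, had 132, 153 and 127 CPM in hypoxia-high wells, against 29.7, 41.5 and 25.5 CPM in hypoxia-low wells (2.01 ± 0.13), and the glycogen branching enzyme Gbe1 rose by 1.92 ± 0.16. Selenbp1, a selenium-binding protein, had 101 counts in hypoxia-high wells and 3 in hypoxia-low wells, a ratio of 40.4 between the pooled levels (95% counting interval 13.4 to 199, counting error only). Among the members not called, Hilpda, Plin2 and Siah2 changed by 0.21, 0.35 and -0.04, and the lysyl oxidase Loxl2 by -0.43. Adm, Lox, Stc1, Angptl4 and Cxcr4 were among those not tested.

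Heme oxygenase, encoded by Hmox1, rested on a single plate. It had 14.1, 122 and 19.5 CPM in hypoxia-high wells, against 11.5, 11.4 and 5.82 CPM in hypoxia-low wells (2.09 ± 0.38, edgeR adjusted p = 0.0012). Without BME replicate 2, where it stood highest, its change was 0.90 (edgeR adjusted p = 0.24).

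Genes for glucose uptake and glycolysis rose along most of the pathway. Of 20 tested members 16 rose and 1 fell, so 85% were called, against 16.4% of all genes, with a median of 1.04. The list summed to 19090, 16450 and 15170 CPM in hypoxia-high wells, against 9454, 7399 and 7484 CPM in hypoxia-low wells. Pfkfb3, which makes an activator of phosphofructokinase, had 26.9, 35.9 and 30.99 CPM in hypoxia-high wells, against 5.21, 8.82 and 5.82 CPM in hypoxia-low wells (2.15 ± 0.26, edgeR adjusted p = 2.3e-05). Pgk1, phosphoglycerate kinase, had 2430, 2489 and 2157 CPM in hypoxia-high wells, against 878, 822 and 845 CPM in hypoxia-low wells (1.39 ± 0.07, edgeR adjusted p = 4.6e-10). Neither gene overlapped between the groups. The glucose transporter Slc2a1 rose by 1.15 ± 0.12, the phosphofructokinase Pfkp by 1.37 ± 0.12, the aldolase Aldoa by 1.29 ± 0.07 and Pdk1, which restrains the entry of pyruvate into the TCA cycle, by 1.27 ± 0.15. Ldha, which makes lactate, had 3191, 2809 and 2936 CPM in hypoxia-high wells, against 1609, 1321 and 1441 CPM in hypoxia-low wells (0.95 ± 0.06). The member that fell was Ldhb, the other lactate dehydrogenase subunit, by 0.50 ± 0.16 (edgeR adjusted p = 0.045), with groups that overlapped and a call that was lost without any 1 of the plates. The transporter Slc16a1, the muscle phosphofructokinase Pfkm and the kinase Pdk3 were not called, with -0.17, 0.25 and 0.33.

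**Figure D2:**
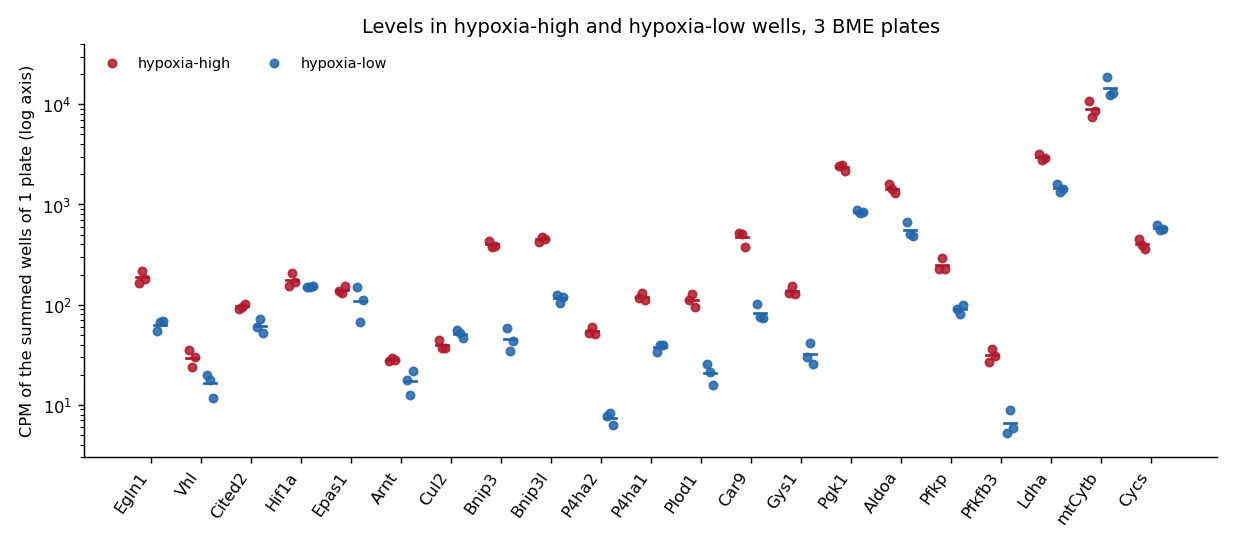
Levels of 21 genes in hypoxia-high (left, red) and hypoxia-low (right, blue) wells of each of 3 BME plates (y axis: CPM of the summed wells, log axis; x axis: genes), with bars at the mean of the plates. Bnip3, P4ha2 and Plod1 stand well apart, the groups of Hif1a lie close together, those of Epas1 overlap, and mt-Cytb (written mtCytb) and Cycs are lower in hypoxia-high wells.

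Enzymes that modify collagen were higher as well. Of 9 tested genes for matrix hydroxylation and crosslinking 5 rose (55.6%, against 8.52% of all genes) and 0 fell, with a median of 1.01. P4ha2 had 52.1, 60.04 and 50.5 CPM in hypoxia-high wells, against 7.82, 8.30 and 6.27 CPM in hypoxia-low wells (2.77 ± 0.21, edgeR adjusted p = 1.1e-07), and P4ha1, the alpha subunit of another form of the same enzyme, rose by 1.57 ± 0.13. The lysyl hydroxylase Plod1 had 110.1, 127 and 95.8 CPM in hypoxia-high wells, against 25.5, 21.3 and 15.7 CPM in hypoxia-low wells (2.33 ± 0.15, edgeR adjusted p = 1.8e-08). Loxl3, a lysyl oxidase, had 18.7, 34.04 and 24.1 CPM in hypoxia-high wells, against 2.08, 8.30 and 4.03 CPM in hypoxia-low wells (2.35 ± 0.30, edgeR adjusted p = 5.0e-05). The groups did not overlap for any of these 4 genes, and the Loxl3 call was lost with a score without Vegfa, at 0.81 (edgeR adjusted p = 0.14).

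Among 8 tested angiogenic ligands and receptors other than Vegfa, 5 rose (62.5%, against 8.52% of all genes) and 0 fell. Pgf, placental growth factor, had 90.8, 241 and 169 CPM in hypoxia-high wells, against 40.1, 65.4 and 46.6 CPM in hypoxia-low wells (1.59 ± 0.14, edgeR adjusted p = 4.4e-07), with BME replicate 2 highest in both groups. The ligand Pdgfb rose by 1.27 ± 0.28, the receptor Flt1 by 1.29 ± 0.37 and the matricellular protein Cyr61 by 0.78 ± 0.13. These 3 calls were lost without BME replicate 2, those for Flt1 and Pdgfb also without BME replicate 1 and that for Flt1 also without BME replicate 3 (for Cyr61 without BME replicate 2, edgeR adjusted p = 0.057).

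Transcripts of the respiratory chain were lower in hypoxia-high wells. Of 13 proteins encoded by the mitochondrial chromosome 11 fell (84.6%, against 7.92% of all genes) and 0 rose, with a median of -0.53. The gene for cytochrome b, mtCytb, had 10760, 7521 and 8508 CPM in hypoxia-high wells, against 18580, 12400 and 13060 CPM in hypoxia-low wells and fell by 0.80 ± 0.04 (edgeR adjusted p = 4.6e-10). Without the plate as a block 2 of the 13 were called. Of 69 nuclear genes of oxidative phosphorylation 22 fell (31.9%, against 7.92% of all genes) and 0 rose, with a median of -0.22. Cycs, cytochrome c, had 448, 390.5 and 360.4 CPM in hypoxia-high wells, against 618, 562 and 575 CPM in hypoxia-low wells and fell by 0.64 ± 0.08 (edgeR adjusted p = 4.0e-05). The count for the nuclear list was 5 without BME replicate 2, 9 with DESeq2 and 1 without the block. Over all genes 168, 160 and 147 fell in these settings, against 768 in the main test. Of 22 genes of the TCA cycle 6 fell (27.3%, against 7.92% of all genes) and 0 rose. Among those that fell was Idh3a, a subunit of isocitrate dehydrogenase, by 0.58 ± 0.10. The TCA cycle count was 1 with DESeq2, 1 with library size alone, 1 without the block and 1 without BME replicate 2. With library size as the only scaling, the medians were -0.44 for the mitochondrially encoded and -0.14 for the nuclear list, beside 0.08 for all genes.

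Genes of ribosome biogenesis were lower too. Of 43 tested Myc targets and ribosome biogenesis genes 33 fell, and the 1 that rose was Ldha, a glycolytic enzyme. So 79.1% were called, against 16.4% of all genes. The median was -0.66. Dkc1, which modifies ribosomal RNA, had 42.8, 63.1 and 45.3 CPM in hypoxia-high wells, against 76.6, 125 and 96.3 CPM in hypoxia-low wells and fell by 1.06 ± 0.12 (edgeR adjusted p = 1.6e-05), and Odc1, the ornithine decarboxylase, fell by 0.98 ± 0.12. Ribosomal protein genes moved less, with 15 of 74 lower (20.3%, against 7.92% of all genes), 0 higher and a median of -0.13. DESeq2 called 1 of them lower.

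S phase genes were lower in hypoxia-high wells, while few G2/M genes were called. In the S phase list 18 of 43 genes fell (41.9%, against 7.92% of all genes) and 0 rose, with a median of -0.44. The replication licensing factor Cdc6 had 4.68, 9.90 and 8.03 CPM in hypoxia-high wells, against 17.7, 18.7 and 19.2 CPM in hypoxia-low wells (fall of 1.39 ± 0.30, edgeR adjusted p = 0.0041). The S phase count was 4 of the 35 given an adjusted p with DESeq2 and 6 without the block, where 160 and 147 of all genes fell. In the G2/M list 3 of 54 fell and 1 rose, with a median of -0.12, so 7.4% were called in either direction, against 16.4% of all genes. DESeq2 called 0 of the 46 that it gave an adjusted p. Cdc20, Ccnb1 and Ccna2, which drive mitotic entry and exit, fell by 0.55 ± 0.14, 0.36 ± 0.11 and 0.36 ± 0.11, and G2e3 rose by 0.66 ± 0.15. The calls for Ccnb1 and Ccna2 were lost when any 1 of the plates was left out, that for Cdc20 without BME replicate 2 or 3 and that for G2e3 without BME replicate 1 or 2. The G2/M list summed to 5209, 4241 and 3917 CPM in hypoxia-high wells, against 5136, 4259 and 4204 CPM in hypoxia-low wells, with groups that overlapped. Of 16 tested CDK inhibitors and quiescence genes 8 rose and 1 fell, so 56.2% were called, against 16.4% of all genes. Among those that rose, Ccng2, a cyclin linked to cell-cycle arrest, had 48.6, 58.8 and 48.2 CPM in hypoxia-high wells, against 23.98, 21.8 and 20.6 CPM in hypoxia-low wells (1.14 ± 0.17, edgeR adjusted p = 0.00021).

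Over all wells in 4 steps of the score, most of the change lay in the top step. From the lowest to the highest step, HIF targets outside glycolysis summed to 4368 ± 319, 4540 ± 244, 5359 ± 89.9 and 8999 ± 836 CPM (SD, n = 3 plates). Glycolysis genes summed to 8112 ± 1162, 9244 ± 692, 11080 ± 1066 and 16900 ± 1998 CPM, which rises at each step. S phase genes had 3236 ± 81.8, 3539 ± 99.8, 3291 ± 68.2 and 2568 ± 219.5 CPM and G2/M genes 4534 ± 523, 5818 ± 955, 5464 ± 949.7 and 4457 ± 671 CPM, both highest in the second step. Basal markers had 1466 ± 103, 1185 ± 195, 1305 ± 169.9 and 2713 ± 951 CPM, lowest in the second step.

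**Figure D3:**
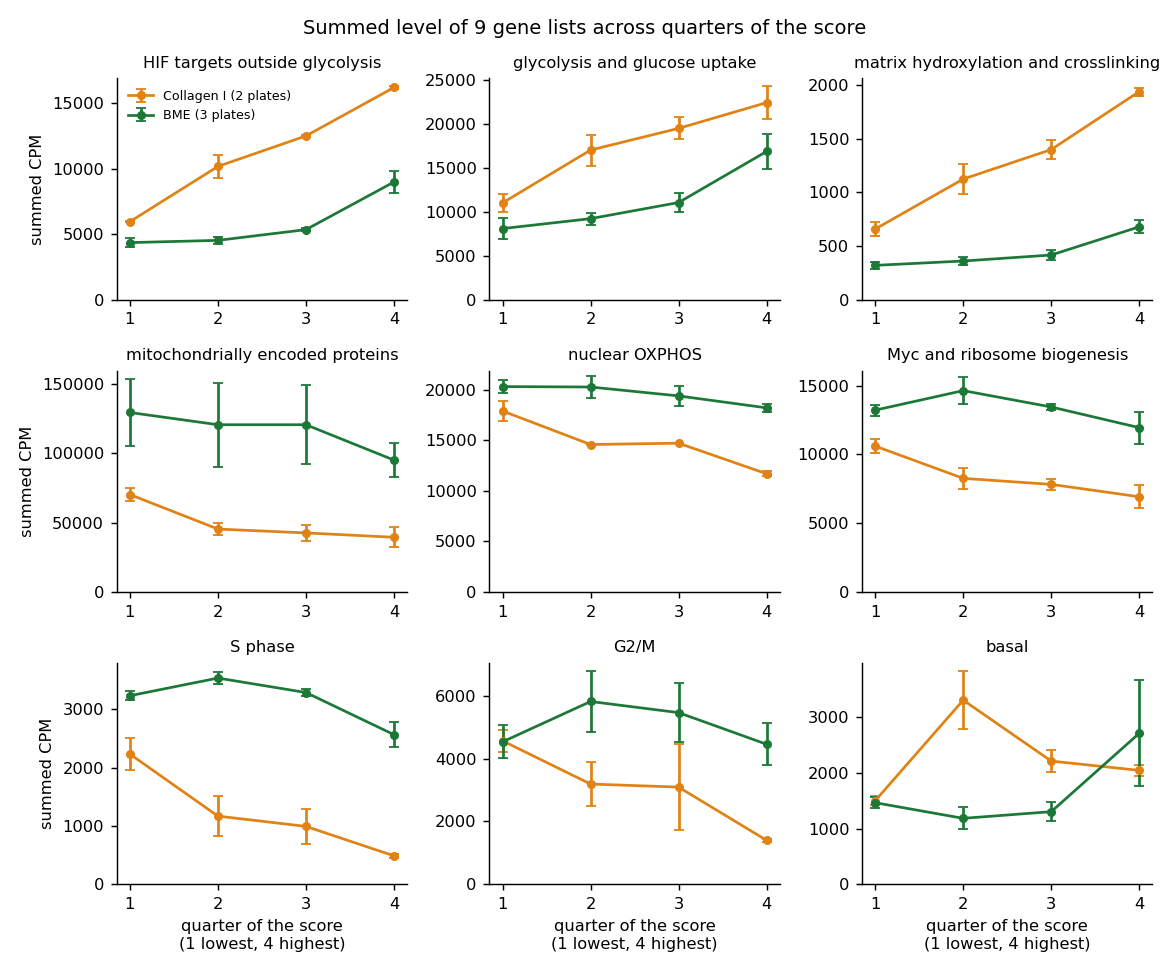
Summed CPM (y axis) of 9 gene lists in 4 steps of the score, lowest to highest (x axis), as the mean of 2 Collagen I plates (orange) and 3 BME plates (green) with bars of 1 SD. HIF targets reach 8999 CPM in the top step of BME, from 5359 CPM in the step before it.

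Markers of the mammary lineages also moved. Of 12 basal markers 10 rose (83.3%, against 8.52% of all genes) and 0 fell, with a median of 0.74. The list summed to 2343, 3793 and 2001 CPM in hypoxia-high wells, against 1538, 1348 and 1512 CPM in hypoxia-low wells. The basal keratins Krt14 and Krt5 rose by 0.77 ± 0.11 and 0.94 ± 0.23. Krt6a had 1.76, 118 and 34.4 CPM in hypoxia-high wells, against 5.21, 14.01 and 29.1 CPM in hypoxia-low wells, and its change of 1.33 ± 0.42 was -0.10 (edgeR adjusted p = 0.90) without BME replicate 2, where it stood highest. Without that plate the Krt5 call was lost too, and 4 of 12 basal markers were called, with a median of 0.38, while DESeq2 called 4 of 12. Of 13 luminal markers 4 rose and 3 fell, so 53.8% were called, against 16.4% of all genes. Cited1, among those that fell, had 27.7 ± 35.8 CPM in hypoxia-high and 68.3 ± 37.15 CPM in hypoxia-low wells (SD, n = 3 plates). Spp1, osteopontin, had 461, 222 and 613 CPM in hypoxia-high wells, against 232, 134 and 101 CPM in hypoxia-low wells (1.35 ± 0.23, edgeR adjusted p = 0.00067), with a change of 0.78 without BME replicate 3, and the luminal keratins Krt8 and Krt18 rose by 0.73 ± 0.11 and 0.59 ± 0.14, the Krt18 call being lost without BME replicate 3. Cd14, a lipopolysaccharide receptor found on luminal progenitors, had 1347, 504 and 743 CPM in hypoxia-high wells, against 1600, 1102 and 1216 CPM in hypoxia-low wells and fell by 0.78 ± 0.11 (edgeR adjusted p = 0.00016), with groups that overlapped across plates.

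These lists kept or lost their calls when the wells were chosen in other ways, and the subsets by cell-cycle and basal share held fewer wells. With the choice made inside 5 strata of depth, 33 of 44 HIF targets rose (median 0.93). Among wells at or below the plate's median share of S and G2/M genes 28 of 41 rose (1.28), and among wells above it 21 of 40 (0.62). Among wells at or below the median basal share 21 of 40 rose (0.63), and among wells above it 32 of 42 (1.33). Of glycolysis genes, 16, 16, 14, 13 and 16 of 20 were higher in these 5 subsets. Over all genes, 697, 311, 209, 188 and 587 rose in them and 601, 172, 100, 58 and 426 fell. In all wells 826 rose and 768 fell, so list counts of the subsets are to be read beside these totals. Ribosome biogenesis genes were lower in 28 of 43 cases inside depth strata, in 3 of 43 among basal-poor wells and in 27 of 40 among basal-rich wells. S phase genes were called lower in 10 of 43 cases inside depth strata, in 0 of 30 among wells with a low and in 0 of 43 among wells with a high S and G2/M share. These wells were split on the same S and G2/M genes, so the counts and medians of both lists there are partly set by the split. G2/M genes turned to a median of 0.34 in the wells with a high share, with 14 of 54 higher. Basal markers had a median of 0.07 among basal-poor wells, which were chosen on those markers, with 0 of 9 called.

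**Figure D4:**
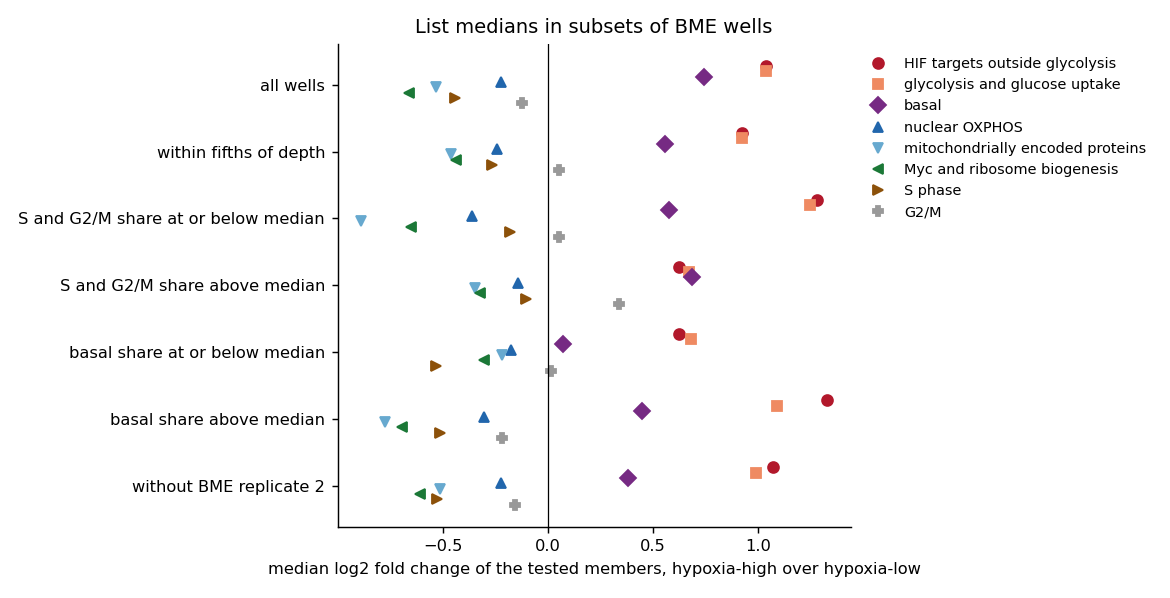
Median log2 fold change, hypoxia-high over hypoxia-low, of the tested members (x axis) of 8 gene lists in all BME wells and in 6 other settings (y axis). HIF targets and glycolysis genes have medians of 0.62 to 1.33 in these settings, basal markers come near 0 among basal-poor wells, and G2/M genes lie above 0 among wells with a high S and G2/M share, both in wells split on the genes shown.

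Stress and signaling genes were mixed. Of 20 tested immediate early and dissociation stress genes 11 rose and 1 fell (60% called, against 16.4% of all genes), with a median of 0.62. Ier3, an early response gene of this list, had 229, 180.1 and 359.8 CPM in hypoxia-high wells, against 79.2, 102 and 86.4 CPM in hypoxia-low wells (1.40 ± 0.16, edgeR adjusted p = 1.5e-05). Among wells with a high S and G2/M share 1 of 19 rose, where 209 of all genes rose. Of 16 tested TGF-beta, EMT and matrix genes 8 rose (50%, against 8.52% of all genes) and 0 fell. Thbs1, thrombospondin, had 239, 189 and 185 CPM in hypoxia-high wells, against 74.02, 61.8 and 68.96 CPM in hypoxia-low wells (1.49 ± 0.11, edgeR adjusted p = 6.4e-08), and the transcription factor Snai1 rose by 1.41 ± 0.21. Of 23 tested ATF4 and amino acid response genes 11 fell and 3 rose (60.9% called, against 16.4% of all genes), with a median of -0.39. But inside depth strata 0 of 24 fell, and with DESeq2 0 of the 20 given an adjusted p. Slc3a2, the heavy chain of amino acid transporters, rose by 0.78 ± 0.09. Of 20 tested genes of oxidative folding and the unfolded protein response 1 rose, the disulfide isomerase P4hb (0.46 ± 0.08), and 2 fell, the chaperone Hyou1 by 0.73 ± 0.12 and Manf by 0.26 ± 0.09, with the Manf call lost without any 1 of the plates. The share called, 15%, was near the 16.4% of all genes.

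Metabolic lists beyond glycolysis changed less. Of 19 tested genes of fatty acid synthesis and lipid droplets 5 rose and 0 fell, and Lpin1, a phosphatidate phosphatase, had 52.1, 47.04 and 59.1 CPM in hypoxia-high wells, against 20.3, 21.8 and 19.7 CPM in hypoxia-low wells (1.27 ± 0.17, edgeR adjusted p = 8.6e-05). Srebf1, a regulator of lipid synthesis, and the desaturase Scd1 rose by 0.96 ± 0.11 and 0.95 ± 0.11. Of 16 tested autophagy and mitophagy genes 6 rose, including Bnip3 and Bnip3l of the HIF target list, with Pink1 (0.92 ± 0.22) and Ulk1 (0.79 ± 0.12). Of 12 tested clock genes 3 rose, the repressor Bhlhe41 by 0.80 ± 0.09, Per1 by 0.72 ± 0.23 and Tef by 0.72 ± 0.15. The shares that rose were 26.3% for fatty acid, 37.5% for autophagy and 25% for clock genes, against 8.52% of all genes. The Per1 call was lost without any 1 of the plates, that for Tef without BME replicate 2 and that for Pink1 without BME replicate 2 or 3.

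The 12 largest rises among genes above 50 CPM, chosen so that the groups did not overlap, include Bnip3, P4ha2, Car9, Plod1, Hmox1 and Gys1 above. The largest was 2610528A11Rik on chromosome 14, with 306, 269 and 281 CPM in hypoxia-high wells, against 29.7, 18.7 and 26.4 CPM in hypoxia-low wells (3.43 ± 0.13, edgeR adjusted p = 3.2e-11). Mgarp, a mitochondrial protein, had 55.04, 60.04 and 49.4 CPM in hypoxia-high wells, against 8.86, 6.75 and 3.13 CPM in hypoxia-low wells (3.06 ± 0.24). The collagen gene Col11a1 had 189, 207 and 158 CPM in hypoxia-high wells, against 40.7, 49.3 and 32.7 CPM in hypoxia-low wells (2.09 ± 0.12). Trp53i11, the transcriptional inhibitor Id4 and the matrix protein Smoc1 rose by 2.10 ± 0.21, 2.01 ± 0.18 and 1.96 ± 0.16.

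The 12 largest falls, chosen likewise, were smaller. The milk protein gene Csn1s1 had 34.5, 17.9 and 2.87 CPM in hypoxia-high wells, against 62.6, 62.8 and 41.2 CPM in hypoxia-low wells and fell by 1.76 ± 0.28 (edgeR adjusted p = 0.00040), and without BME replicate 2 its change was -1.70 (edgeR adjusted p = 0.065). Hp, haptoglobin, had 318, 287 and 533 CPM in hypoxia-high wells, against 667, 843 and 771 CPM in hypoxia-low wells and fell by 1.13 ± 0.13 (edgeR adjusted p = 1.8e-05). Umps, an enzyme of pyrimidine synthesis, fell by 1.15 ± 0.15, and Aen, a p53-induced nuclease, by 1.02 ± 0.17. Dkc1 and Odc1 are given above. Aldh3a1, the glutathione reductase Gsr, the glycerol kinase Gyk, the pyrophosphatase Ppa1, the complex I assembly factor Ndufaf4 and the mitochondrial import factor Chchd4 fell by 0.91 to 0.94, with the calls for Gsr and Ndufaf4 lost without BME replicate 2. Of 15 tested acute-phase and secreted defense genes, 6 fell and 2 rose, so 53.3% were called, against 16.4% of all genes. Cxcl5, a chemokine, had 1863, 344 and 969 CPM in hypoxia-high wells, against 1847, 1442 and 1502 CPM in hypoxia-low wells, so its groups overlapped, and its fall of 0.96 ± 0.23 became -0.39 (edgeR adjusted p = 0.13) without BME replicate 2.

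The same choice of wells on the Collagen I plates was made to ask whether the genes that go with the score differ between the matrices. The contrasts start from different levels. Hypoxia-high wells of Collagen I had median scores of 106 and 105 and hypoxia-low wells 17.3 and 14.4. The Collagen I sums were shallower, with 327795 and 201897 counts in hypoxia-high and 520620 and 283528 in hypoxia-low wells, against 1707966, 1615911 and 1742936 in hypoxia-high and 1918525, 1927084 and 2233497 in hypoxia-low wells of BME. By the run identifiers of the data, the 3 BME plates were read in a single sequencing run and the Collagen I plates in separate ones, so matrix and run cannot be told apart. The effect of the score, Collagen I minus BME, differed for 325 of 10440 genes (3.11%), 104 positive and 221 negative (edgeR interaction with the plate as a block). On simulated data this test recovered 13% of 2-fold and 64% of 4-fold differences, so a gene not called may still differ.

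HIF targets and glycolysis genes were higher in the hypoxia-high wells of every plate in both matrices, by their summed levels. The difference was called for 4 positive and 1 negative of 48 HIF targets, and for 4 positive and 0 negative of 20 glycolysis genes. The positive counts were 1 and 0 without Collagen I replicate 1, 2 and 1 without BME replicate 1, 1 and 1 without the plate as a block, and 0 and 0 with wells thinned to 2000 counts. Hif1a had 262 and 213 CPM in hypoxia-high wells and 109.5 and 74.1 CPM in hypoxia-low wells of Collagen I, and its effect there exceeded that in BME by 1.30 ± 0.24 (edgeR adjusted p = 0.0029). That call was lost without BME replicate 1, at 1.18 (edgeR adjusted p = 0.053), and without Collagen I replicate 1, at 1.44 (edgeR adjusted p = 0.085).

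The difference was called for many cell-cycle genes. It was negative for 29 of 54 G2/M genes and 11 of 43 S phase genes, and positive for 1 and 0. The S phase count was 3 without Collagen I replicate 1, 20 without BME replicate 3, 7 without the block and 1 of 19 with wells thinned to 2000 counts, where 2 of 29 G2/M genes were negative. G2/M genes summed to 1437 and 1362 CPM in hypoxia-high and 4322 and 4808 CPM in hypoxia-low wells of Collagen I, where the groups did not overlap. Ccnb1, which encodes cyclin B, had 3 counts in hypoxia-high and 93 in hypoxia-low wells of Collagen I, a ratio of 0.0490 between pooled levels (95% counting interval 0.00992 to 0.148). With the choice made inside strata of depth, 16 G2/M genes were called negative, and the difference for Ccnb1 was -1.54 (edgeR adjusted p = 0.053), against -3.88 (edgeR adjusted p = 0.00018) without strata. The G2/M count was 12 without Collagen I replicate 1 and 18 without BME replicate 1. Cycs had 125 and 79.3 CPM in hypoxia-high wells and 474 and 539.7 CPM in hypoxia-low wells of Collagen I, a difference of effects of -1.52 ± 0.22 (edgeR adjusted p = 0.00029).

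Some genes that rose with the score in BME had another pattern in Collagen I. Id4 had 73.2 and 29.7 CPM in hypoxia-high wells and 115 and 74.1 CPM in hypoxia-low wells of Collagen I, and the difference of effects was -2.76 ± 0.37 (edgeR adjusted p = 0.00016). For Thbs1 the Collagen I levels were 183 and 213 CPM in hypoxia-high wells and 217 and 282 CPM in hypoxia-low wells, with a difference of -1.73 ± 0.21 (edgeR adjusted p = 4.9e-05). For Loxl3 they were 104 and 29.7 CPM in hypoxia-high wells and 108 and 81.1 CPM in hypoxia-low wells, with a difference of -2.69 ± 0.47 (edgeR adjusted p = 0.0016). Each of these 3 calls, and that for Cycs, was kept when any 1 of the 5 plates was left out. With wells thinned to 2000 counts only that for Cycs was kept among these 4, and the differences were -2.24 (edgeR adjusted p = 0.23) for Id4, -1.0 (edgeR adjusted p = 0.29) for Thbs1 and -1.07 (edgeR adjusted p = 0.79) for Loxl3.

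**Figure D5:**
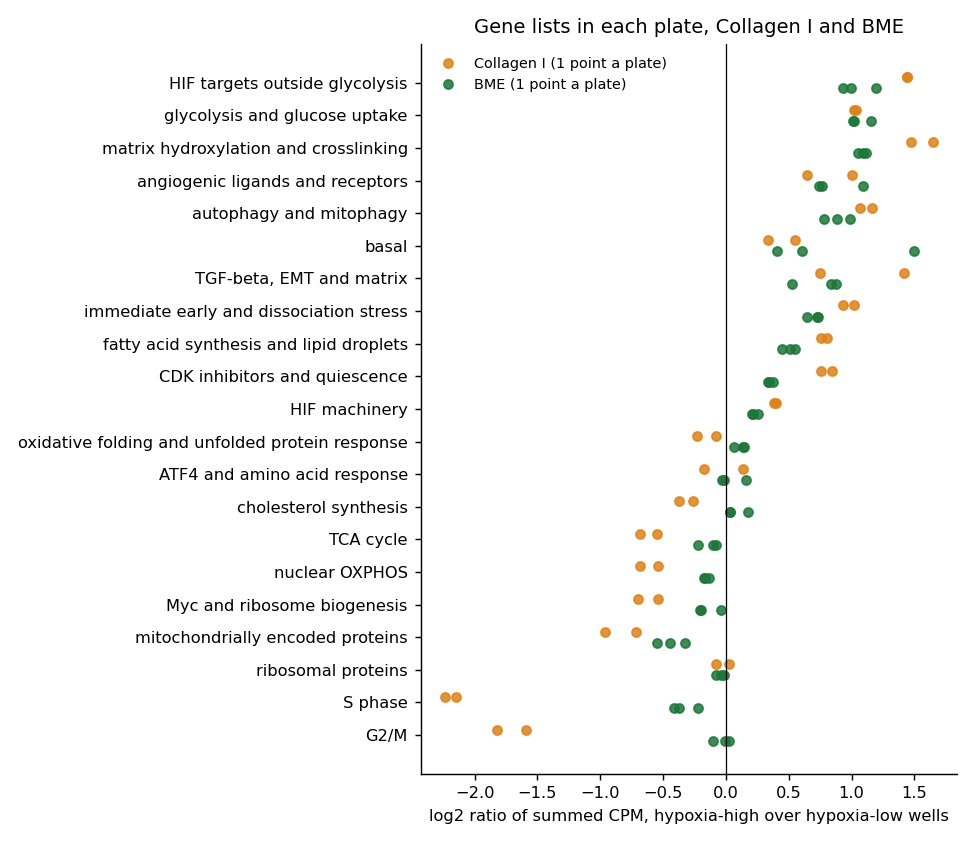
Log2 ratio of summed CPM, hypoxia-high over hypoxia-low wells (x axis), of 21 gene lists (y axis), with 1 point for each of 2 Collagen I plates (orange) and 3 BME plates (green). HIF targets, glycolysis and collagen-modifying enzymes lie above 0 in all 5 plates and S phase genes below 0 in all 5, while G2/M genes lie far below 0 in the 2 Collagen I plates.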

How the data were processed

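Plates of sorted MMTV-PyMT organoid cells were analysed, 3 from BME and 2 from Collagen I. The authors deposited expected counts of transcripts per gene and well, that is, distinct molecular barcodes corrected for saturation, after mapping with BWA to mm10 as named in the submitters' processing notes (the sources used here give no versions). The values fit barcodes of 6 bases, although the labels describe another length. Plates held 9077590 to 10911740 counts in BME and 1631981 and 1091410 in Collagen I. No doublet caller was run. Leaving out the top 5% of wells by counts was tried instead.

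ERCC rows were dropped, wells were scored and chosen, and counts were summed per plate and group, rounded, filtered with filterByExpr and compared with edgeR 4.0.16 (R 4.3.3, TMM, quasi-likelihood test, plate as a block, Benjamini-Hochberg adjusted p under 0.05 over all tested genes but the 5 score genes). Each SE was obtained as the absolute log2 change over the root of the F statistic. The plate is the pairing, since both groups come from the same plate. The procedure was first tested on simulated data with known changes. In BME 85% of genes changed 2-fold and 97% of those changed 4-fold were recovered, with 20 false calls. For the difference between matrices these were 13% and 64%, with 8 false calls. Alternatives were DESeq2 1.42.0, other scalings, filters and well limits, other shares of wells, strata of depth, thinning, subsets by S and G2/M or basal share, scores without 1 gene and leaving out 1 plate. Sequences came from RefSeq and positions from GENCODE vM21.

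The members, the gene lists and the rule for named genes were chosen with earlier results of these data known. The rule takes the score genes, the HIF machinery, the 12 largest changes in each direction among called genes of at least 50 CPM whose groups did not overlap, up to 4 called members per list, and the 5 largest differences between matrices in each direction. Some genes that it takes are not reported here. Gbe1, Slc2a1, Pdk1, Ldhb, Krt5, Krt14 and the list members given as not called were named after their values were seen. Intervals cover counting error only.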

Additional observations from a re-analysis of the deposited data

Results flagged for a closer look

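The effect of the hypoxia score differed between Collagen I and BME for 325 genes by the edgeR interaction test, and the genes with the largest differences in each direction are given here. The fitted differences of the most negative genes were -9.21 for Mcm2, -8.71 for Aurka, -8.65 for Mcm3, -8.62 for Kif2c and -8.48 for Padi3. These genes had 0 counts in the hypoxia-high wells of Collagen I, so the fitted values depend on the prior count and are not bounds. Their hypoxia-low wells held 62, 36, 48, 34 and 13 counts, which makes the hypoxia-high level at least 13.6-fold, 7.90-fold, 10.5-fold, 7.46-fold and 2.85-fold lower, against a floor of 3 counts over the group.

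The most positive differences were 7.62 for Abca5, 4.42 for Mmp13, 3.12 for Arrdc3, 3.08 for Qsox1 and 2.92 for Mxd1. In Collagen I, Abca5 had 12 counts in hypoxia-high and 0 in hypoxia-low wells, at least 6.07-fold higher against the same floor. The ratio of pooled levels there, with its 95% counting interval, was 3.69 (1.45 to 10.5) for Mmp13, 10.7 (6.11 to 20.4) for Arrdc3, 8.22 (4.86 to 14.7) for Qsox1 and 10.02 (3.89 to 32.9) for Mxd1. In BME, Mmp13 had 4 counts in hypoxia-high and 29 in hypoxia-low wells, a ratio of 0.17 (0.042 to 0.47), so its difference draws on both matrices. The Mxd1 call (edgeR adjusted p = 0.037) was lost without BME replicate 1 or 2, without the plate as a block and inside depth strata. With wells thinned to 2000 counts the calls for Arrdc3 and Qsox1 were lost (edgeR adjusted p = 0.52 and 0.38). Matrix and sequencing run cannot be told apart in these values.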

How the results depend on the processing

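In BME, 826 genes were called higher and 768 lower. These counts were 277 and 160 with DESeq2, 288 and 147 without the plate as a replicate block, 1114 and 455 with library size alone, 413 and 260 with the top and bottom 1 in 10 wells, 41 and 8 with wells thinned to 2000 counts, 311 and 172 among wells with a lower S and G2/M share, 209 and 100 among those with a higher one, 188 and 58 among wells with a lower basal share, 587 and 426 among those with a higher one, 555 and 421 with a score without Vegfa and 1290 and 1260 without Egln3. Leaving out 1 BME plate gave 313 to 616 higher and 168 to 496 lower, fewest without BME replicate 2. Of calls made with library size alone 71% were higher, against 51.8% with TMM. Size factors of DESeq2 in edgeR, no filter, other well limits, a mitochondrial limit, undone saturation correction and scores without Ndrg1, Bhlhe40 or Ero1l kept both counts within 1.5 times. None of the 1594 called genes was called in the opposite direction in any of these alternatives. The left-out test of Bhlhe40 gave 0.76 with DESeq2 and 0.75 without the replicate block, both not called, and could not be run on thinned wells. The difference between matrices, 325 genes, gave 174 with DESeq2, 519 without a filter, 100 without the replicate block, 20 with thinned wells and 83 to 524 when 1 plate was left out, fewest without Collagen I replicate 1.

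Among called genes reported above, DESeq2 gave an adjusted p at or above 0.05 for Cul2, Cited2, Hmox1, Manf, Tef, G2e3, Cdc20, Ccnb1, Ccna2, Cxcl5, Krt6a, Spp1 and Krt18, and the fit without the replicate block for Vhl, Cul2, Cited2, Hmox1, Csn1s1, P4hb, Manf, Per1, Flt1, Pdgfb, Cyr61, G2e3, Cdc20, Ccnb1, Ccna2, Cxcl5, Pink1, Krt6a, Cd14 and Krt18. The call for Mthfd2, which is not given above (-0.59, edgeR adjusted p = 0.012), was lost in both fits. Some single genes changed sign. These log2 fold changes were -0.10 for Krt6a without BME replicate 2 (and 2.37 without BME replicate 3), 0.042 for Ccnb1 with the top and bottom 1 in 10 wells, 0.0029 for Mthfd2 inside depth strata, 0.31 for Ndufaf4 with thinned wells, 0.024, 0.23, 0.21, 0.27 and -0.0093 for Mthfd2, Cdc20, Ccnb1, Ccna2 and Mgp among wells with a higher S and G2/M share, 0.028 and 0.12 for Mthfd2 and Cdc20 among wells with a lower basal share, and 0.013 and -0.78 for Cdc20 and Postn with a score without Vegfa. The cause was not tested. Depth limits the Collagen I groups most, since 3 counts over a group correspond to 5.66 CPM in hypoxia-high and 3.73 CPM in hypoxia-low wells.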
